A study of Mus musculus with 12 samples.

Results

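Perineuronal nets are coats of extracellular matrix that settle around the cell body and proximal dendrites of some neurons as circuits mature, most densely around fast-spiking inhibitory neurons that carry parvalbumin. In them, hyaluronan chains made at the cell surface by hyaluronan synthases carry the chondroitin sulfate proteoglycans of the lectican family, link proteins clamp each lectican to the chain, and tenascins tie neighbouring lecticans together. The genes described here are 10 genes of this matrix: the link proteins Hapln1, Hapln2 and Hapln4, the lecticans Acan (aggrecan), Bcan (brevican), Ncan (neurocan) and Vcan (versican), the tenascins Tnr (tenascin-R) and Tnc (tenascin-C), and the hyaluronan synthase Has3. The set was chosen by its relation to Hapln4, which had been seen to fall when Top1 was deleted, so that the change of Hapln4 in that comparison is part of how the genes were chosen and not a result. All 10 have a row among the 23893 genes of the count table, and 9 of them are among the 13720 whose mean over the 12 libraries reached 1 CPM, a read count scaled to library size.

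TOP1, topoisomerase 1, relaxes supercoiled DNA ahead of and behind RNA polymerase by cutting and resealing 1 strand, and topotecan traps the enzyme on the DNA it has cut. Cortical neurons of C57BL6 mice, prepared at E13.5-15.5, received on day 3 in vitro (DIV 3) a lentivirus in which the CaMKIIα promoter drives tdTomato alone (WT) or tdTomato and CRE (Top1 cKO), and were treated at DIV 15 with 300 nM topotecan (Topot) or with vehicle (Veh; 0.003% DMSO, which all cultures received), and harvested 3 days later. The study's methods give all cultures as Top1 fl/fl, with exon 3 floxed, whereas the labels call the tdTomato cultures wild-type. Each genotype was thus measured with vehicle (WT-Veh, Top1 cKO-Veh) and with topotecan (WT-Topot, Top1 cKO-Topot), in 3 polyA RNA libraries a group. The promoter limits CRE to neurons and 85 to 90% of cells were transduced, so the Top1 cKO cultures are a mixture: Top1 lay between 117 and 163 CPM in the 6 WT libraries and between 27.1 and 44.0 CPM in the 6 Top1 cKO libraries. Depth was low, at 1730164 to 4583777 counts per library, and 3 counts correspond to 0.687 to 1.73 CPM. The labels do not say what a replicate is, and a figure legend of the study calls the replicates of its RNA-seq cultures. Without blocking on the replicate number (below), p-values rest on the spread between these cultures, estimated in part from the other genes.

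Topotecan lowered Tnr in WT cells, and Tnr was higher in Top1 cKO-Topot than in WT-Topot cells. Acan was also called lower with topotecan in WT cells, but in only 5 of 10 alternative fits. Its log2 difference went from −2.19 to −1.02 without WT-Veh replicate 2. Hapln4 was called lower with topotecan in WT cells too, but in a comparison that uses the WT-Veh libraries by which it was chosen, so nothing is read from that call. The groups of Ncan, the most abundant gene of the set, overlapped in every comparison. A gene was called when its adjusted p was below 0.01 in the quasi-likelihood test of edgeR, adjusted by Benjamini-Hochberg over the 23893 genes. Libraries that share a replicate number varied together, so wherever blocking on that number changes the call of one of the 10 genes, the blocked value follows the unblocked one. A blocked p-value rests on the spread left once the replicate number is taken out, again estimated in part from the other genes. Small blocked p-values therefore do not show that the differences of a gene were alike across replicate numbers. In bulk RNA, fewer cells that express a gene and less of its RNA per cell cannot be told apart.

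The cultures carried all 8 markers of neurons, with a summed level of 5956 to 7899 CPM in the 12 libraries, although 1 of the 8 was called lower in WT-Topot than in WT-Veh (3 lower and 2 higher with the block). Astrocyte markers were also abundant, and they were lower with topotecan in both genotypes. The 10 astrocyte markers summed to 2411 to 4976 CPM in WT-Veh against 1151 to 1965 CPM in WT-Topot, and to 2728 to 6296 CPM in Top1 cKO-Veh against 1723 to 3218 CPM in Top1 cKO-Topot, and 3 of the 10 were called lower in WT-Topot than in WT-Veh (5 with the block). In Top1 cKO-Topot against Top1 cKO-Veh, 0 of the 10 were called, and 6 were called lower with the block. Gfap, the intermediate filament of astrocytes, ranged from 364 to 1151 CPM in WT-Veh and from 57.0 to 181 CPM in WT-Topot. The 10 interneuron markers, Gad1 among them, summed to 815 to 1783 CPM in WT-Veh against 578 to 1059 CPM in WT-Topot, and to 1241 to 1458 CPM in Top1 cKO-Veh against 952 to 1402 CPM in Top1 cKO-Topot, and 5 were called lower and 2 higher in WT-Topot with the block, against 0 without it. In Top1 cKO-Topot against WT-Topot, 1 interneuron marker was called higher, and 4 with the block. Of the astrocyte markers, 1 was called higher there, and 2 with the block, and the astrocyte sum was higher within each replicate number. Parvalbumin itself, Pvalb, which defines the cells that carry the densest nets in the adult cortex, had 1 to 8 counts in each library, while the list of 5 genes it belongs to summed to 119 to 227 CPM. Oligodendrocyte markers summed to 62.6 to 182 CPM, with Mag, Mobp and Opalin at 3 counts or fewer in every library of each group, and those of their precursors to 20.7 to 198 CPM. Endothelial and mural markers lay between 22.3 and 177 CPM, microglial markers between 0.437 and 17.0 CPM, and proliferation markers between 0 and 4.78 CPM. With the block, WT-Topot against WT-Veh also gave 1 precursor marker called higher, 1 oligodendrocyte marker lower and 1 of the 5 genes of the parvalbumin list lower, against 0 in each list without it. In Top1 cKO-Topot against Top1 cKO-Veh, 2 oligodendrocyte markers and 1 precursor marker were higher with the block alone. There 1 neuron marker and 1 endothelial or mural marker were lower with the block alone. In Top1 cKO-Veh against WT-Veh no marker was called without the block. With it 2 interneuron markers, 1 astrocyte, 1 precursor and 1 neuron marker were higher and 1 microglial marker was lower. In Top1 cKO-Topot against WT-Topot, 1 neuron marker was called lower and 2 higher (3 and 2 with the block). The block alone gave 1 precursor marker, 1 oligodendrocyte marker and 1 gene of the parvalbumin list higher there.

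**Figure D1:**
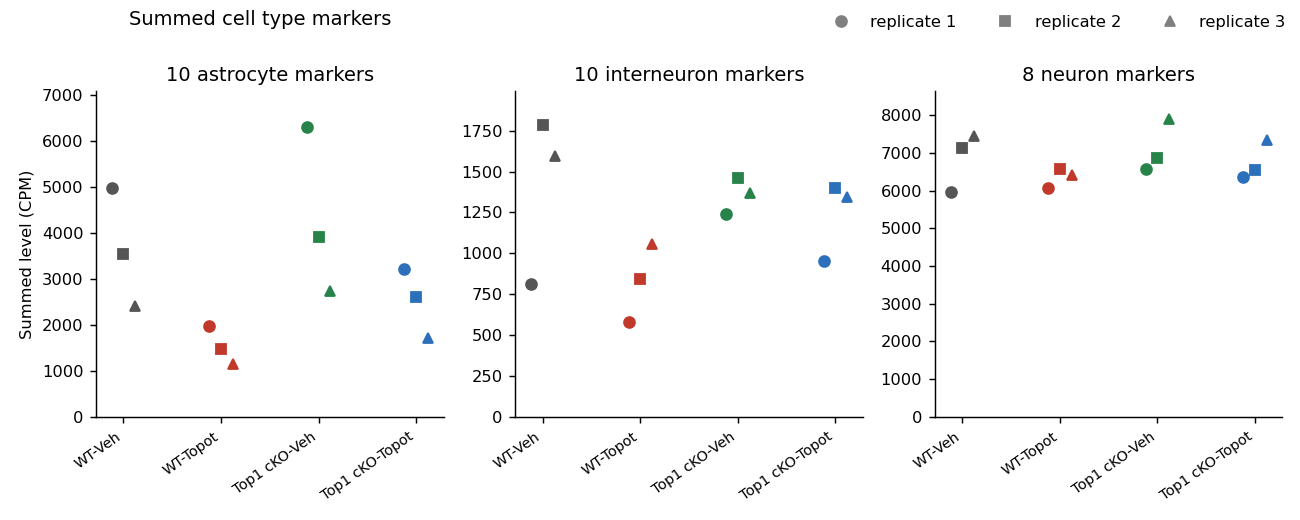
Summed level (CPM, vertical axis) of 10 astrocyte, 10 interneuron and 8 neuron markers in each of the 12 libraries, by group, with the symbol showing the replicate number. The astrocyte sum of each WT-Topot library (1151 to 1965) lies below that of each WT-Veh library (2411 to 4976), whereas the neuron sums of all groups lie between 5956 and 7899.

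Link protein and lectican genes sit side by side in the genome. On mm9 (NCBIM37, GENCODE vM1 annotation), Hapln4 spans chr8:72607428-72614761 on the forward strand and runs towards Ncan, chr8:72616984-72644772 on the reverse strand, with 2222 bases between their ends. Hapln1 (chr13:89680241-89751437, forward) runs towards Vcan (chr13:89794915-89882117, reverse) across a gap of 43.5 kb. Hapln2 (chr3:87825672-87831505) and Bcan (chr3:87791453-87804278) are both on the reverse strand, 21.4 kb apart. Acan (chr7:86198369-86259985, forward) ends 40 bases from the end of a further link protein gene, Hapln3, on the reverse strand. Tnr (chr1:161667641-161855053, forward), Tnc (chr4:63620819-63681760, reverse) and Has3 (chr8:109394142-109406802, forward) have no such partner among the 10. The genes differ in span: Tnr covers 187 kb and was the only one of the 10 longer than 100 kb, Vcan covers 87.2 kb, Hapln1 71.2 kb, Acan 61.6 kb, and Hapln4 only 7.33 kb. Whether strand was used when reads were counted is not given in the sources used here, so that reads from the converging ends of Hapln4 and Ncan, or of Acan and Hapln3, could be shared. Hapln3 had a mean of at most 0.397 CPM in any group.

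Of the 10 genes, 8 have promoters in the RefSeq table for GRCm38.p6; Hapln4 and Has3 do not. The 250 bases before the start site are shown for Tnr and Acan, which moved with topotecan in WT cells (below), and for Ncan, the most abundant gene of the set, to show how unlike they are in base composition. Letters in capitals mark a match, on either strand, to TATAAA (in 12.4% of the 32851 promoter windows of this length), CCAAT (33.8%), CACGTG (6.02%), TGACGTCA (1.55%) or TGACTCA (4.46%), none of which overlapped another in these windows.
Tnr, chr1:159523519-159523768, forward: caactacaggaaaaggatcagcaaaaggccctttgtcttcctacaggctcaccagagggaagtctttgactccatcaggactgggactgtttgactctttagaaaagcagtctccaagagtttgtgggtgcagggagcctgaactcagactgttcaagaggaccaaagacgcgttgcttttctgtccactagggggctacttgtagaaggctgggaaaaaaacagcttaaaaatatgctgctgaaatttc
Acan, chr7:79052976-79053225, forward: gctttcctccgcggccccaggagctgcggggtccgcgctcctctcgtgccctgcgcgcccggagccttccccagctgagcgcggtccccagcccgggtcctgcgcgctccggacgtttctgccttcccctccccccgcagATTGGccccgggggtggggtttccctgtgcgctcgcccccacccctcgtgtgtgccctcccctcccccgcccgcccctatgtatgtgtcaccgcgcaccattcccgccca
Ncan, chr8:70120845-70121094, reverse: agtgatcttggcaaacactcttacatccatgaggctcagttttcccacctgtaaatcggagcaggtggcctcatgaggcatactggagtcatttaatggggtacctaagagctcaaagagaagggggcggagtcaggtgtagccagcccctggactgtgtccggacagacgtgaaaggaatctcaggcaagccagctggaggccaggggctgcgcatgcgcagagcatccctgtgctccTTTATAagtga
The Tnr window has 2 CG dinucleotides, 46.8% G and C and none of the 5 motifs. The Acan window has 26 CG dinucleotides, 74.4% G and C and a CCAAT on the reverse strand, and the Ncan window has 6 CG dinucleotides, 54.4% G and C and a TATAAA on the reverse strand. The median over all windows was 6 CG dinucleotides. A match is a description of these letters only.

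Levels were compared between genes per kilobase of exon (RPKM, from the TMM-scaled counts and GENCODE exon lengths). In WT-Veh cells Ncan led the set at 67.9 ± 23.9 RPKM (SD, n = 3), above every other gene in each library. Hapln4 (15.3 ± 2.1), Hapln1 (15.0 ± 10.1), Tnr (12.3 ± 1.89), Bcan (8.07 ± 5.0) and Acan (7.14 ± 7.06) followed, and the libraries of neighbours in this order overlapped. Has3 (2.76 ± 0.532) came next, within the spread of the Acan libraries, and then Vcan (1.17 ± 0.378) and Tnc (0.957 ± 0.3), which differed by less than their SDs. Hapln2, at or under the floor of 3 counts in every library, is left out of this order. In Top1 cKO-Veh cells Hapln4 stood at 1.87 ± 1.06 RPKM, below Hapln1 (17.6 ± 10.02) and near Vcan (1.69 ± 0.34). The WT-Veh and Top1 cKO-Veh libraries are those that chose Hapln4, so its place in them is described only.

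**Figure D2:**
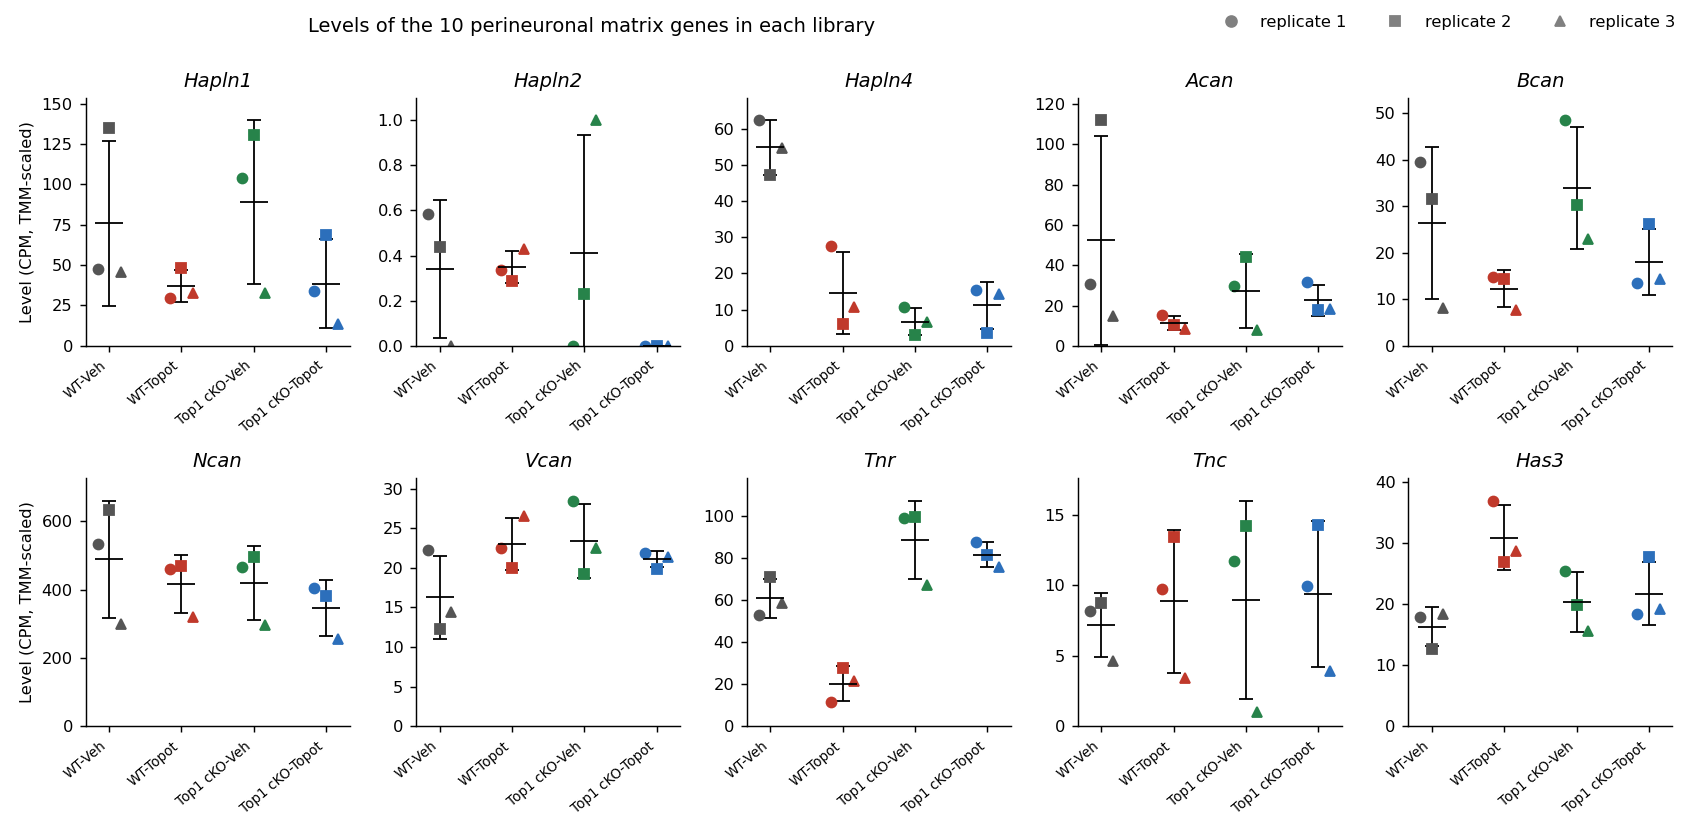
Level (CPM scaled by TMM, vertical axis from 0, a separate scale for each gene) of the 10 genes in the 12 libraries; symbols are replicate numbers 1 to 3, and the bar and whiskers are the mean ± SD of 3 libraries. Tnr falls to 11.4 to 27.8 CPM in WT-Topot and lies between 67.1 and 99.6 CPM in the 6 Top1 cKO libraries, whereas Hapln4 is at 47.3 to 62.3 CPM in WT-Veh and at or below 27.5 CPM in every other library. The WT-Veh and Top1 cKO-Veh libraries are those that chose Hapln4.

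Hapln4, a link protein of the nervous system that holds brevican in nets, had 62.3, 47.3 and 54.7 CPM in the 3 WT-Veh libraries, 27.5, 6.01 and 10.7 CPM in WT-Topot, 10.6, 2.98 and 6.51 CPM in Top1 cKO-Veh and 15.5, 3.65 and 14.4 CPM in Top1 cKO-Topot. WT-Veh stood above all other groups without overlap, and the other 3 groups overlapped one another. In Top1 cKO-Veh against WT-Veh, the comparison that chose it, the log2 difference was −3.09 ± 0.362 (SE), given without a test. With topotecan in WT cells Hapln4 was lower by 1.89 ± 0.365 on the log2 scale, or 3.7-fold. This comparison shares the WT-Veh libraries with the one that chose Hapln4. Its call (adjusted p = 0.00279) is listed in the counts below, but nothing is read from it. The call was lost with edgeR's filterByExpr (adjusted p = 0.0196), and without WT-Topot replicate 1 the log2 difference was −2.74. In libraries that the choice did not use, Top1 cKO-Topot against WT-Topot, the log2 difference was −0.42 ± 0.467 (adjusted p = 0.879; 0.572 with the block), and it changed sign when WT-Topot replicate 1 (0.43) or Top1 cKO-Topot replicate 2 (0.02) was left out. Adding topotecan to Top1 cKO cells gave a log2 difference of 0.78 ± 0.526 (adjusted p = 1), positive within each of the 3 replicate numbers (0.52, 0.23 and 1.04). This comparison uses the Top1 cKO-Veh libraries in which Hapln4 was chosen for being low, which favours a positive difference, so nothing is read from it.

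Hapln1, the link protein with the widest tissue range, which is found in cartilage as well as in nets, had 47.4, 135 and 45.5 CPM in WT-Veh, 29.8, 48.4 and 33.0 CPM in WT-Topot, 104, 130.3 and 32.6 CPM in Top1 cKO-Veh and 33.9, 68.4 and 13.6 CPM in Top1 cKO-Topot. Its libraries overlapped in every comparison, but within each replicate number topotecan went with a lower level in both genotypes, by 0.65, 1.46 and 0.45 on the log2 scale in WT cells and by 1.6, 0.92 and 1.21 in Top1 cKO cells. Without the block neither difference was called (−1.03 ± 0.332, adjusted p = 0.1, and −1.19 ± 0.456, adjusted p = 0.915). In WT cells it was called without WT-Veh replicate 1 (−1.29, adjusted p = 0.00124) or 3 (−1.27, adjusted p = 0.00044), whereas without WT-Veh replicate 2, the highest library, it shrank to −0.32 (adjusted p = 0.876). In Top1 cKO cells it was called without Top1 cKO-Veh replicate 3 (−1.57, adjusted p = 0.000197) and in no other fit that left out 1 library. It was −0.83 without Top1 cKO-Veh replicate 2 (adjusted p = 1), −0.8 without Top1 cKO-Topot replicate 3 (adjusted p = 1) and −1.9 without Top1 cKO-Topot replicate 2 (adjusted p = 0.264). With the block both were called lower, at −0.92 ± 0.179 (adjusted p = 2.61e-05) and −1.23 ± 0.154 (adjusted p = 7.55e-12). The difference between the genotypes was 0.25 ± 0.428 with vehicle and 0.07 ± 0.341 with topotecan. The summed astrocyte markers were lower with topotecan within each replicate number too, and their part in this difference was not tested. Hapln2, the link protein of nodes of Ranvier, which oligodendrocytes make, had 0 to 2 counts in each library, at or under the 3 counts taken as the floor, and no fold change is given for it.

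Among the lecticans, Acan is the proteoglycan that defines the nets of cortical interneurons. It had 30.7, 112 and 15.0 CPM in WT-Veh, 15.4, 10.3 and 8.56 CPM in WT-Topot, 29.7, 44.2 and 8.02 CPM in Top1 cKO-Veh and 31.5, 17.9 and 18.4 CPM in Top1 cKO-Topot. The WT-Veh libraries spread widely, and 1 WT-Veh library lay within the range of WT-Topot. Topotecan lowered Acan in WT cells by 2.19 ± 0.49 on the log2 scale (adjusted p = 0.00944), and by 1.94 ± 0.26 with the block (adjusted p = 9.37e-10). Within the replicate numbers, in order, the differences of log2(CPM + 1) were −0.95, −3.32 and −0.74, a spread that the SE with the block does not show. The call without the block was lost in 5 of the 10 alternatives: without WT-Veh replicate 2 (−1.02, adjusted p = 0.138), WT-Topot replicate 2 (adjusted p = 0.0158) or WT-Topot replicate 3 (adjusted p = 0.0116), and, with all 6 libraries kept, with filterByExpr (adjusted p = 0.0492) and in the Wald test of DESeq2 (adjusted p = 0.0809). WT-Veh replicate 2 was also the library with the highest sum of interneuron markers, 1783 CPM, and the part of interneuron number in this difference was not tested. With topotecan present, Acan was higher in Top1 cKO cells than in WT cells, with no overlap between the libraries and a log2 difference of 0.97 ± 0.316 (adjusted p = 0.0846), called with the block (0.96 ± 0.236, adjusted p = 0.0023). In the same comparison 1 interneuron marker (4 with the block) and 1 astrocyte marker (2 with the block) were called higher, and their part was not tested. Within Top1 cKO cells the effect of topotecan was −0.31 ± 0.414 (adjusted p = 1). With vehicle, the difference of Top1 cKO from WT was −0.9 ± 0.566, past the threshold with the block alone (−0.8 ± 0.199) and 0.27 without WT-Veh replicate 2. No p is given, since this comparison chose Hapln4.

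Bcan, which astrocytes and neurons both make, had 39.5, 31.6 and 8.06 CPM in WT-Veh, 14.7, 14.3 and 7.71 CPM in WT-Topot, 48.5, 30.2 and 23.0 CPM in Top1 cKO-Veh and 13.54, 26.2 and 14.4 CPM in Top1 cKO-Topot. Its levels were lower with topotecan within all 3 replicate numbers of both genotypes, although the log2 difference of number 3 in WT cells was −0.06. The differences were uncalled without the block (−1.12 ± 0.402, adjusted p = 0.16 in WT, and −0.89 ± 0.322, adjusted p = 0.83 in Top1 cKO). They were called lower with it (−1.05 ± 0.25, adjusted p = 0.000944, and −0.85 ± 0.201, adjusted p = 0.00164). In WT cells the difference was also called without WT-Veh replicate 3, the library with the lowest of the WT-Veh levels (−1.51, adjusted p = 0.000342), and was smaller without WT-Veh replicate 1 (−0.71, adjusted p = 0.485) or WT-Topot replicate 3 (−0.89, adjusted p = 0.392). In Top1 cKO cells it ranged from −1.27 to −0.55 with single libraries left out and was called in none of these fits. As for Hapln1, astrocyte markers were lower in the same libraries and their part was not tested.

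Ncan, the lectican of the developing brain, had 532, 634 and 299 CPM in WT-Veh, 461, 470 and 319 CPM in WT-Topot, 467, 495 and 296 CPM in Top1 cKO-Veh and 404, 379.6 and 254 CPM in Top1 cKO-Topot. All its groups overlapped, and its log2 differences lay between −0.27 and −0.22 in all 4 comparisons, with adjusted p of 0.644 to 1 in the 3 that were tested and 0.0412 to 0.426 with the block. Its neighbour Hapln4, 2222 bases away, differed by −3.09 in Top1 cKO-Veh against WT-Veh, where Ncan differed by −0.22 ± 0.249. That comparison chose Hapln4, so nothing is read from this contrast of neighbours. In libraries that the choice did not use, Top1 cKO-Topot against WT-Topot, Hapln4 differed by −0.42 ± 0.467 and Ncan by −0.27 ± 0.185. Vcan, the lectican of loose matrix and of precursor cells, had 22.2, 12.3 and 14.4 CPM in WT-Veh, 22.5, 20.04 and 26.6 CPM in WT-Topot, 28.5, 19.2 and 22.5 CPM in Top1 cKO-Veh and 21.9, 19.9 and 21.4 CPM in Top1 cKO-Topot. Its difference with topotecan in WT cells was 0.48 ± 0.291 (adjusted p = 0.596) and was positive within each replicate number, although that of number 1 was 0.01.

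Tnr, the tenascin of oligodendrocytes and inhibitory neurons that cross-links lecticans in nets, had 52.7, 71.0 and 58.7 CPM in WT-Veh, 11.4, 27.8 and 21.4 CPM in WT-Topot, 98.9, 99.6 and 67.1 CPM in Top1 cKO-Veh and 87.6, 81.4 and 75.6 CPM in Top1 cKO-Topot. Each WT-Topot library lay below each library of the other 3 groups, and each Top1 cKO-Topot library lay above each WT library. Topotecan lowered Tnr in WT cells by 1.58 ± 0.276 on the log2 scale, or 2.99-fold (adjusted p = 0.00108), and in Top1 cKO cells the difference was −0.11 ± 0.197 (adjusted p = 1). Top1 cKO-Topot cells had 4.01-fold more Tnr than WT-Topot cells (log2 difference 2.0 ± 0.252, adjusted p = 2.26e-05). Tnr was called in both comparisons under each of the 10 alternatives run for it, leaving out any library included, with adjusted p of at most 0.00672 and 0.00176. With vehicle, the difference of Top1 cKO from WT was 0.55 ± 0.219 and was positive within each replicate number. It passed the threshold with the block alone (0.55 ± 0.154). Beside this, oligodendrocyte markers summed to 105 to 139 CPM in WT-Veh and 103 to 135 in WT-Topot, and these sums overlapped. Among the 8, 1 was called lower with the block, against 0 without it. Mbp was lower without overlap (68.0 to 79.3 CPM in WT-Veh, 45.0 to 57.5 in WT-Topot), and Mog overlapped (1.31 to 2.88 and 1.34 to 4.01 CPM). The markers of their precursors summed to 24.0, 65.3 and 20.7 CPM in WT-Veh and to 70.04, 82.4 and 65.1 CPM in WT-Topot, higher with topotecan within each replicate number. Interneuron markers were lower with topotecan within each replicate number. They summed to 952, 1402 and 1346 CPM in Top1 cKO-Topot against 578, 845 and 1059 CPM in WT-Topot. In that comparison 1 interneuron marker (4 with the block) and 1 astrocyte marker (2 with the block) were called higher. With the block alone, 1 precursor marker, 1 oligodendrocyte marker and 1 gene of the parvalbumin list were higher too. The part of these cell types in the differences of Tnr was not tested.

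Tnc, the tenascin of astrocytes and of growing tissue, had the lowest mean RPKM of the measurable genes in WT-Veh, within the SD of Vcan. It had 8.19, 8.77 and 4.61 CPM in WT-Veh, 9.72, 13.45 and 3.43 CPM in WT-Topot, 11.7, 14.2 and 1.0 CPM in Top1 cKO-Veh and 9.96, 14.3 and 3.93 CPM in Top1 cKO-Topot. Replicate 3 was lowest in every group, at 2 to 9 counts, and the differences between groups (0.02 to 0.36, SE 0.439 to 0.57) were within the spread of the libraries. Has3, which makes hyaluronan, had 17.8, 12.7 and 18.4 CPM in WT-Veh, 36.9, 26.9 and 28.7 CPM in WT-Topot, 25.4, 19.9 and 15.5 CPM in Top1 cKO-Veh and 18.3, 27.6 and 19.2 CPM in Top1 cKO-Topot. The WT-Topot libraries lay above the WT-Veh libraries without overlap, by 0.92 ± 0.27 on the log2 scale (adjusted p = 0.0592), and this was called with the block (0.94 ± 0.227, adjusted p = 0.00113). In Top1 cKO cells the difference with topotecan was 0.11 ± 0.282 (adjusted p = 1). The other synthases, Has1 and Has2, had means of at most 0.668 CPM.

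**Figure D3:**
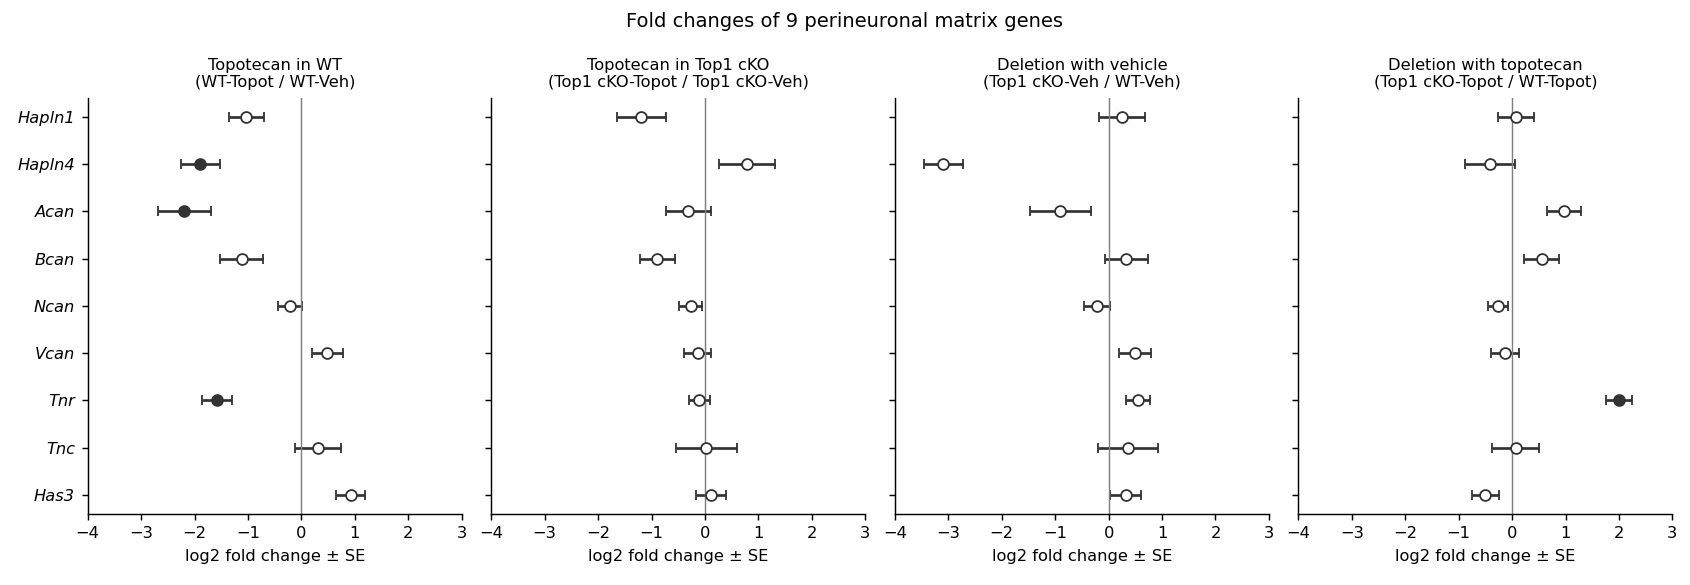
Log2 fold change ± SE (horizontal axis) of the 9 genes with more than 3 counts in some library, in 4 comparisons of 3 against 3 libraries, by edgeR without the block. Filled points passed an adjusted p of 0.01; the comparison of deletion with vehicle chose Hapln4 and is shown without a test. Acan, Tnr and Hapln4 are filled with topotecan in WT, where Hapln4 is tested on the WT-Veh libraries that chose it. Only Tnr is filled in Top1 cKO-Topot against WT-Topot, at 2.0.

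Counted over the 10 genes, topotecan in WT cells gave 3 called lower (Acan, Hapln4 and Tnr) and 0 called higher, where 2.04% of all genes were called lower and 0.682% higher. Of the 13720 genes with at least 1 CPM, 3.56% were called lower and 1.19% higher. Without Hapln4, which was chosen on the same WT-Veh libraries, 2 of 9 were called lower. At an unadjusted p below 0.05, 5 of the 10 were lower (Hapln1, Acan, Bcan, Tnr and again Hapln4) and 1, Has3, was higher, where 1715 of the 23893 genes were lower and 1406 higher. With the block 5 were called lower, Hapln4 among them, and 1 higher, against 5.0% and 3.24% of all genes and 8.71% and 5.62% of those 13720. The median log2 difference without the block was −1.03 over the 9 measurable genes and −0.63 over the 8 without Hapln4, beside 0.03 over the 13720 genes with at least 1 CPM. In Top1 cKO cells topotecan gave 0 called by edgeR or DESeq2, with Hapln1 and Bcan lower at an unadjusted p below 0.05; 0.00837% of all genes were called lower and 0% higher, where 627 genes were lower and 404 higher at an unadjusted p below 0.05 and DESeq2 called 44 lower and 9 higher. With the block 2 of the 10 were called lower and 0 higher, against 1.74% and 0.858% of all genes. The median without the block was −0.14 (−0.2 without Hapln4), beside 0.0.

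Deletion with topotecan present gave 1 called higher (Tnr) and 0 lower, where 1.46% of all genes were called higher and 1.03% lower, and no member was lower at an unadjusted p below 0.05 or called lower by DESeq2. With the block 2 were called higher (Acan and Tnr) and 0 lower, against 4.60% and 4.08%. Deletion with vehicle, the comparison that chose Hapln4, gave 1 called lower without the block, where 0.126% of all genes were called lower and 0.0460% higher, and 2 lower and 1 higher with it, where the shares of all genes were 2.95% and 2.60%. Nothing is read from these last counts.

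Whether topotecan acted differently in the genotypes was tested as the interaction over all 12 libraries, that is the log2 effect of topotecan in Top1 cKO cells minus that in WT cells. Without the block 0 of the 10 genes were called by edgeR, where 0.398% of all genes were called higher and 0.0377% lower. DESeq2 called Tnr higher, where it called 275 higher and 82 lower over all genes. At an unadjusted p below 0.05, 2 were higher (Acan and Tnr, Hapln4 left aside) and 1 lower, against 1093 and 873 over all genes. With the block Tnr (1.47 ± 0.256, adjusted p = 5.3e-05) and Acan (1.87 ± 0.451, adjusted p = 0.00456) were called higher, where 2.44% of all genes were called higher and 1.53% lower. Without it their adjusted p were 0.0435 and 0.448, and the interaction of Acan was called in the blocked fit alone. It was 0.7 in the unblocked fit without WT-Veh replicate 2 (adjusted p = 1). That of Hapln4, which contains the contrast that chose it, was 2.79 ± 0.415 with the block and is given without a test. That of Has3 was −0.81 ± 0.319 (adjusted p = 0.157 with the block).

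Set against Ncan in the same library, Hapln4 had 7.47 to 18.3 counts per 100 Ncan counts in WT-Veh and 1.28 to 5.96 in WT-Topot, against 0.602 to 2.26 in Top1 cKO-Veh and 0.962 to 5.69 with topotecan added. Tnr had 9.9 to 19.7 counts per 100 Ncan counts in WT-Veh and 2.47 to 6.7 in WT-Topot, against 20.1 to 22.7 in Top1 cKO-Veh and 21.4 to 29.8 with topotecan added, so that the 4 groups did not overlap except Top1 cKO-Veh with Top1 cKO-Topot. On this scale Tnr was higher than Hapln4 in every Top1 cKO library, by counts and not per length. Hapln4 was chosen on the WT-Veh and Top1 cKO-Veh libraries, so its ratios there are described only and nothing is read from them. Acan lay between 5.01 and 17.6 in WT-Veh and between 2.19 and 3.34 in WT-Topot, without overlap, whereas its CPM in these groups overlapped. In Top1 cKO-Veh it lay between 2.71 and 8.94 and in Top1 cKO-Topot between 4.72 and 7.79, and both overlapped WT-Veh. Hapln1 overlapped between WT-Veh (8.91 to 21.2) and WT-Topot (6.47 to 10.3). For these ratios no test was run.

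**Figure D4:**
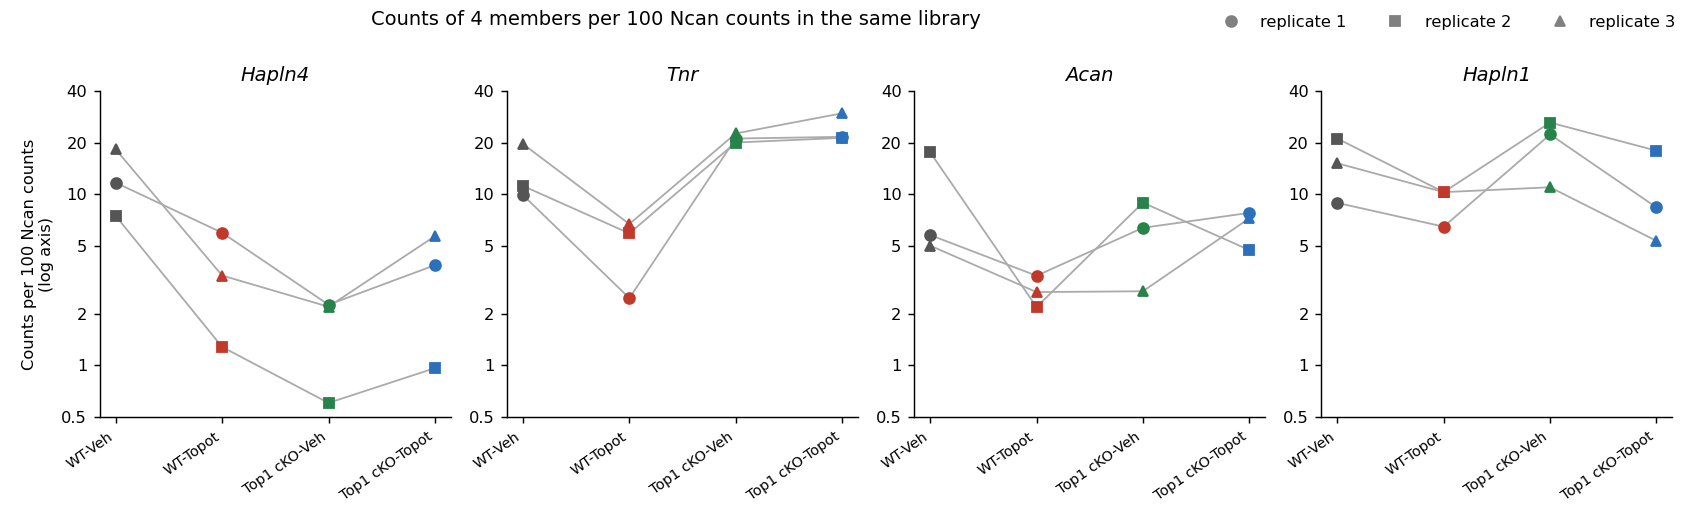
Counts of Hapln4, Tnr, Acan and Hapln1 per 100 Ncan counts (vertical log axis) in each library; grey lines join libraries with the same replicate number, shown by the symbol. Hapln4 is at 7.47 to 18.3 in WT-Veh and at most 5.96 elsewhere, whereas Tnr is at most 6.7 in WT-Topot and at least 20.1 in Top1 cKO libraries. The WT-Veh and Top1 cKO-Veh libraries are those that chose Hapln4.

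Of 67 further genes of the matrix, in 4 lists chosen from known functions, 61 had a mean of at least 1 CPM. Earlier results of these data were known when the lists were chosen, so their counts of calls are a description. With topotecan in WT cells 4 of the 67 were called lower and 0 higher, where 3.56% of the 13720 genes with at least 1 CPM were called lower and 1.19% higher. With the block the counts were 12 and 3, against 8.71% and 5.62%. The unadjusted p was below 0.05 for 17 that were lower and 7 that were higher, where 1715 of the 23893 genes were lower and 1406 higher. DESeq2 called 5 lower and 1 higher, against 621 and 220 over all genes. The genes called without the block were Ptprd, a receptor phosphatase of the family that binds chondroitin sulfate (−2.19 ± 0.215, adjusted p = 1.87e-06), Cntn1, a contactin that binds tenascin-R (−1.15 ± 0.166, adjusted p = 0.000148), Nptx2, a pentraxin that gathers in nets at excitatory synapses on interneurons (−2.83 ± 0.454, adjusted p = 0.000443), and Xylt1, the xylosyltransferase that starts each chondroitin sulfate chain (−2.36 ± 0.457, adjusted p = 0.00283). Xylt1 had 21.0 ± 6.4 CPM (SD, n = 3) in WT-Veh and 3.88 ± 3.39 CPM in WT-Topot, and Cntn1 661 ± 57.0 and 298 ± 32.1 CPM. With the block the calls took in Mmp3, a matrix metalloproteinase, which had the most negative difference (−3.3 ± 0.329, adjusted p = 2.17e-15) and 38.8 ± 50.4 CPM in WT-Veh against 3.63 ± 3.99 CPM in WT-Topot. They also took in Ptprz1 and Cspg5, which are themselves brain chondroitin sulfate proteoglycans (−0.83 ± 0.142 and −0.5 ± 0.124), and Timp2, an inhibitor of matrix metalloproteinases, which was higher (0.66 ± 0.102, adjusted p = 1.01e-07).

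By list, 0 of 8 other matrix components were called in WT-Topot against WT-Veh (3 lower with the block), 1 of 22 genes of chondroitin sulfate synthesis (3 lower and 1 higher with the block), 0 of 23 genes of matrix turnover (2 lower and 1 higher) and 3 of 14 receptors and ligands (4 lower and 1 higher). Over their members with at least 1 CPM, the median log2 differences were −0.71 for the 4 other components, −0.02 for synthesis, 0.07 for turnover and −0.2 for receptors and ligands, beside 0.03 over all 13720 genes. In Top1 cKO-Topot against Top1 cKO-Veh 0 of the 67 were called by edgeR, 6 were lower and 1 higher at an unadjusted p below 0.05, and DESeq2 called 1, where 0.0146% of the 13720 genes were called lower and 0% higher. With the block 4 were called lower, Ptprz1 and Cspg5 among them, and 1 higher, against 3.02% and 1.49%. In Top1 cKO-Topot against WT-Topot Nptx2 was the 1 gene called without the block, higher by 3.23 ± 0.303 on the log2 scale (adjusted p = 5.19e-07), where 2.55% of the 13720 genes were called higher and 1.79% lower. With the block 4 were called higher and 3 lower, against 8.02% and 7.08%. Nptx2 was also called in the interaction, at 3.37 ± 0.628 (adjusted p = 0.00786), the only gene of the 67, where 0.692% of the 13720 genes were called higher and 0.0656% lower, and with the block 6 were called higher and 1 lower, against 4.24% and 2.66%. Its interaction call was lost when any of 6 single libraries was left out. Nptx2 had 186 ± 156 CPM (SD, n = 3) in WT-Veh against 26.5 ± 11.7 CPM in WT-Topot, and 169 ± 22.2 CPM in Top1 cKO-Veh against 246 ± 102 CPM in Top1 cKO-Topot, so that, as for Tnr, its WT-Topot mean was the lowest of the 4. Ptprd had 281 ± 9.01 CPM in WT-Veh against 61.1 ± 19.8 CPM in WT-Topot, and 113 ± 26.1 CPM in Top1 cKO-Veh against 51.8 ± 11.1 CPM in Top1 cKO-Topot, and its difference in Top1 cKO-Veh against WT-Veh was −1.31 ± 0.196, in the comparison that chose Hapln4.

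**Figure D5:**
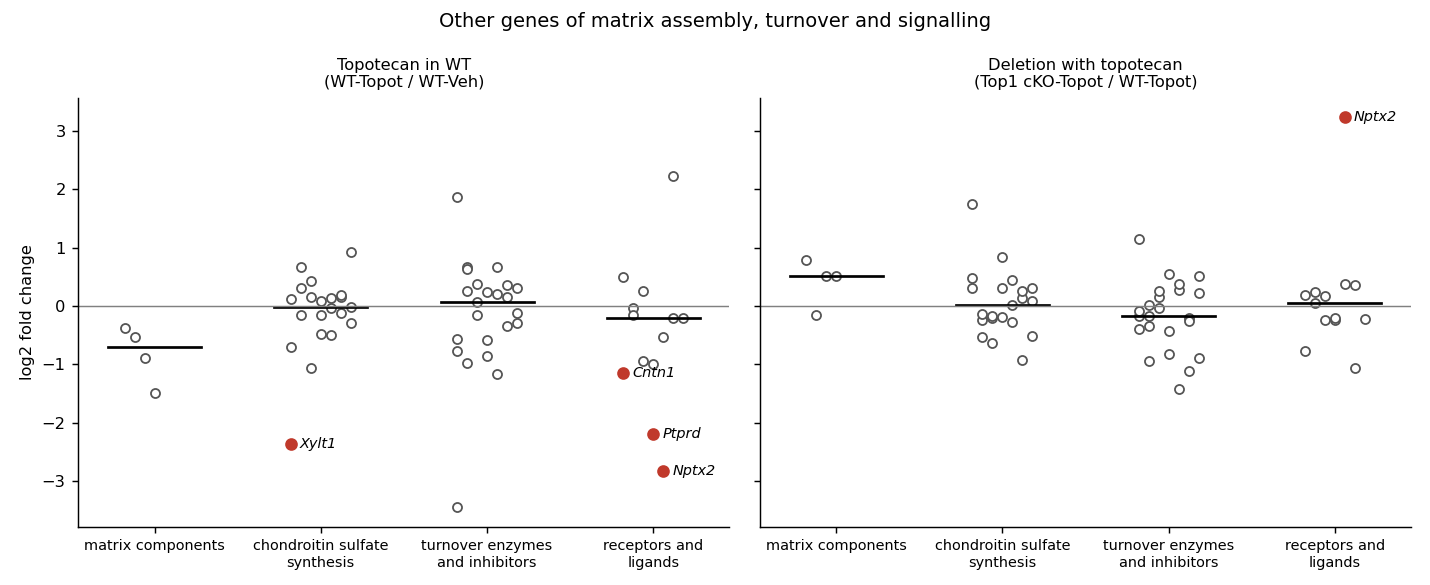
Log2 fold change (vertical axis) of the 61 further matrix genes that averaged 1 CPM or more, by list, with topotecan in WT cells (left) and for Top1 cKO-Topot against WT-Topot (right); black lines are medians, and red points passed an adjusted p of 0.01 without the block. Xylt1, Cntn1, Ptprd and Nptx2 are red on the left, at −2.83 to −1.15, and Nptx2 alone on the right, at 3.23.

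Likeness to the pattern of Hapln4 was the root mean square difference of log2(CPM + 1) over the 12 libraries, each gene centred on its own mean, among 13719 genes. The nearest 5 were Susd5 (0.601), Cd74 (0.615), Btn2a2 (0.671), Shmt2 (0.677) and Cyb5r1 (0.68), where Hapln4 itself varied by 1.31 around its mean. Shmt2, the mitochondrial serine hydroxymethyltransferase, had 58.8 ± 7.17 CPM (SD, n = 3) in WT-Veh against 19.4 ± 2.75 CPM in WT-Topot, and 9.44 ± 1.75 CPM in Top1 cKO-Veh against 10 ± 1.84 CPM in Top1 cKO-Topot. Cyb5r1, a cytochrome b5 reductase, had 112 ± 26.4, 34.6 ± 7.08, 23.7 ± 6.16 and 19.1 ± 3.92 CPM in the same order. Susd5, Cd74 and Btn2a2 had low levels, with means of 11.6, 8.49 and 2.96 CPM in WT-Veh. A gene that did not vary at all would lie 1.31 from Hapln4, and the other measurable genes of the matrix set lay at 1.3 (Ncan) to 1.74 (Tnr). The pattern of Hapln4 rests in large part on the WT-Veh and Top1 cKO-Veh values that chose it, and nothing is read from these distances.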

How the data were processed

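Replicated polyA RNA libraries of 4 groups were analysed, 12 in all. The authors used TagDust on the paired-end reads of 50 bases, TopHat at default settings for the alignment to mm9, dropped rRNA reads and deposited raw counts over RefSeq exons per gene symbol, without normalization or filter. The counting program, its use of strand and the tool versions are not given in the sources used here. Reads of overlapping genes may thus be shared between symbols.

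From the deposited counts, edgeR 4.0.16 (R 4.3.3) scaled libraries by TMM, and its quasi-likelihood test compared each pair of groups on its own 6 libraries, without a filter on low counts, and the interaction on all 12. P-values were adjusted by Benjamini-Hochberg over 23893 genes, with a threshold of 0.01. CPM are relative to the TMM-scaled total. Of the columns, 0 were left unmapped to a sample. No library repeats another of its group: counts varied 6.44 to 10.9 times as much as sampling noise allows.

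The numbers 1 to 3 in the labels were taken as pairs, since deviations from the group means over 13720 genes correlated at 0.261 to 0.485 in all 18 pairs of equal number and at −0.384 to −0.0494 otherwise. What a number stands for is not given in the sources used here. Alternatives were the replicate block, RLE size factors in place of TMM, edgeR's filterByExpr, the Wald test of DESeq2 1.42.0 and leaving out each library. The scripts were tested on simulated data.

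The 10 genes, the 4 lists of further matrix genes and the lists of cell type markers were chosen with earlier results of these data known. Besides the 10 genes and Top1, the text names at most 6 genes of the matrix lists called per comparison, by adjusted p, the 5 nearest Hapln4 in pattern and the defining markers; Ptprz1, Cspg5, Hapln3, Has1, Has2, and the markers at the floor were named after their values were seen. Of the 67 listed genes all were found, Cemip under an older symbol. Coordinates and exon lengths come from GENCODE vM1, and promoter sequences from RefSeq (GRCm38.p6).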

Additional observations from a re-analysis of the deposited data

Results flagged for a closer look

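In the fit with the replicate block, the effect of topotecan on the log2 scale differed between Top1 cKO and WT cells for 2 of the 9 genes tested for it. Of all genes, 2.44% were called higher and 1.53% lower in that fit. The difference was 1.87 ± 0.451 (SE) for Acan (adjusted p = 0.00456) and 1.47 ± 0.256 for Tnr (adjusted p = 5.3e-05), each in the direction of a less negative effect in Top1 cKO cells. Without the block neither was called by edgeR. The adjusted p over the 16 alternatives ranged from 0.00456 to 1 for Acan and from 5.3e-05 to 0.108 for Tnr, which DESeq2 also called. Without WT-Veh replicate 2, in the unblocked fit, the difference of Acan was 0.7 (adjusted p = 1). Hapln4 was left out, since the difference contains the contrast that chose it.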

How the results depend on the processing

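With the replicate block, the count of the 10 genes called moved from 3 to 6 for WT-Topot against WT-Veh, from 1 to 3 for Top1 cKO-Veh against WT-Veh, from 0 to 2 for Top1 cKO-Topot against Top1 cKO-Veh, from 1 to 2 for Top1 cKO-Topot against WT-Topot and from 0 to 3 for the interaction, Hapln4 among the 3; of the 67 further genes it moved from 4 to 15, 1 to 9, 0 to 5, 1 to 7 and 1 to 7 in the same order. With filterByExpr, which tests fewer genes, the 10 genes gave 1 call (Tnr) in WT-Topot against WT-Veh and 0 in Top1 cKO-Veh against WT-Veh, and the further genes 2, 0 and, in the interaction, 0. DESeq2 called Tnr in the interaction (1 of the 10), and of the further genes 2 for deletion with vehicle, 1 for topotecan in Top1 cKO cells and 2 for deletion with topotecan. Leaving out single libraries gave 2 to 5 calls among the 10 genes in WT-Topot against WT-Veh (5 without WT-Veh replicate 3) and 0 to 1 for topotecan in Top1 cKO cells (1, Hapln1, without Top1 cKO-Veh replicate 3), and among the further genes 4 to 8, 0 to 2, 0 to 2, 1 to 3 and 0 to 1 in the order above. The cause of these shifts was not tested.

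No value of the 10 genes called without the block changed sign; for the further genes only counts of calls were compared. Acan in Top1 cKO-Veh against WT-Veh, lower by the threshold with the block (−0.8), was 0.27 without WT-Veh replicate 2. Among uncalled log2 differences, that of Hapln1 in Top1 cKO-Topot against WT-Topot was −0.04 with the block and −0.65 to 0.47 with single libraries left out. In the tested comparisons the other ranges that crossed 0 when libraries were left out were −0.48 to 0.01 (Ncan) and −0.12 to 0.66 (Tnc) in WT-Topot against WT-Veh; −0.71 to 0.23 (Acan), −0.28 to 0.03 (Vcan), −0.44 to 0.52 (Tnc) and −0.1 to 0.29 (Has3) for topotecan in Top1 cKO cells; and −0.81 to 0.43 (Hapln4) and −0.37 to 0.5 (Tnc) in Top1 cKO-Topot against WT-Topot. In Top1 cKO-Veh against WT-Veh, which is described without a test, they were −0.13 to 0.96 (Hapln1), −1.44 to 0.27 (Acan), −0.06 to 0.74 (Bcan), −0.47 to 0.02 (Ncan) and −0.14 to 0.82 (Tnc). Low counts limit Tnc and Hapln2 in particular.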
